A study of Rattus norvegicus with 6 samples.

Results

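Chemokines, cytokines and the genes of the NF-kB pathway were examined in the rat kidney as 1 group of 41 genes, listed by symbol and matched to array probes through their RefSeq accessions. Of the 41 genes, 38 had a probe (42 probes of 30367 on the array), and 32 passed the filter on dim probes and were tested among 10633 named genes. Nfkb1, Relb and Tnfaip3 matched no probe, and Ccl7, Ccr1, Il6, Tnf, Selp and Nlrp3 were below the filter. The study measured total RNA in 6 whole kidney samples from rats aged 21 weeks on Agilent one-colour arrays, labelled with Cy3. In 1 group 3 samples were labelled diabetic, and in the other 3 were labelled as treated with Bailing Capsule, a fermented Cordyceps preparation. How diabetes was induced, the strain, sex, dose and length of treatment are not stated in the labels, which also leave unsaid whether the treated rats were diabetic, and no untreated healthy group was analysed here. Samples are named as separate replicates without further detail, so p-values measure only the spread between these samples, which may be technical.

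Chemokines are small secreted proteins that bind G protein-coupled receptors and direct leukocytes into tissue. Many of them, with cytokines and endothelial adhesion molecules, are transcribed when NF-kB dimers are freed from their inhibitor in the cytoplasm, move to the nucleus and bind kappaB sites, downstream of Toll-like receptors and of the receptors for tumour necrosis factor and interleukin 1. In the diabetic kidney, tubular and glomerular cells are known to make such chemokines, and macrophages are the best described of the cells they attract.

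Each value below is a scaled log2 signal, the log2 of the background-subtracted spot intensity minus the 75th percentile of its array, so 0 is the 75th percentile and 1 unit is a doubling of the signal. Differences are Bailing Capsule minus diabetic, with limma's standard error (SE) and the Benjamini-Hochberg adjusted p over all 17892 features tested. Arrays are given in the order of replicates 1 to 3. Levels of different probes are not comparable. In whole tissue, fewer cells of a type and less RNA per cell cannot be told apart.

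The share of probes above background was 64.5% to 73.5% per array, and pairs of arrays correlated at 0.971 to 0.989 across features. The scan identifier in the file headers put the 6 arrays into 2 sets. Each set was taken as 1 slide, although no slide number was read. All treated arrays shared slide 1 with diabetic replicate 1, while the other diabetic arrays were on slide 2, so with slide as a block the difference rests on diabetic replicate 1 alone. Without diabetic replicate 1, treated arrays are all on slide 1 and diabetic arrays on slide 2, so group and slide cannot be told apart. That replicate was the lowest of the 3 diabetic arrays for 57.6% of the 17464 features with a value on all 3 diabetic arrays, and for 21 of the 31 such genes of the chemokine, cytokine and NF-kB group (67.7%). It was the highest for 19.7% of features and for 6 of the 31 genes. Of the 12 listed markers of kidney epithelium, 11 had a probe and all 11 were above background on every array, including Lrp2 and Umod. The leukocyte marker Ptprc and the macrophage marker Cd68 were above background on 6 of 6 arrays, while the T cell marker Cd3e was on 2 of 6 and the B cell marker Ms4a1 had no probe.

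No member was called at an adjusted p under 0.05 by limma, against 0.319% of all features (57 of 17892; 0.129% higher and 0.19% lower). At an unadjusted p under 0.05 there were 5 of 32 (15.6%, against 7.55% of all features), namely Cxcl9 and Ccl20 on the higher side with Bailing Capsule (2 of 32, against 3% of all features) and Cxcl11, Cxcl2 and Ccl19 on the lower (3 of 32, against 4.54%). The groups did not overlap for 5 members, Cxcl9, Ccl20 and Csf1 on the higher side and Cxcl11 and Cxcl2 on the lower, a share of 15.6% against 11.6% of all features (4.58% higher and 7.06% lower). Differences of at least 1 log2 unit were measured for 4 members (12.5%, against 3.61%), namely Cxcl9, Cxcl11, Cxcl2 and Cxcl12. Cxcl2 and Sele passed the filter through the diabetic group alone, so Cxcl2 adds no support to these counts. Of the 28 members above background on all 6 arrays, 4 had an unadjusted p under 0.05 (14.3%, against 6.80% of the 16164 such features), 4 had groups that did not overlap (14.3%, against 10.8%) and 3 differed by at least 1 log2 unit (10.7%, against 2.36%). The last 3 included Cxcl12, although its second probe differed by 0.17 and its first by 0.70 with slide as a block. The members were also chosen with earlier results of these data known. The sign was negative for 20 of 32 members (62.5%) and for 62.1% of all features. The median difference over the tested members was -0.06, beside -0.09 over all features. With slide as a block these medians were 0.21 and 0.09, with positive signs for 21 of 32 members and 59.4% of all features, and without diabetic replicate 1 they were -0.23 and -0.17.

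**Figure D1:**
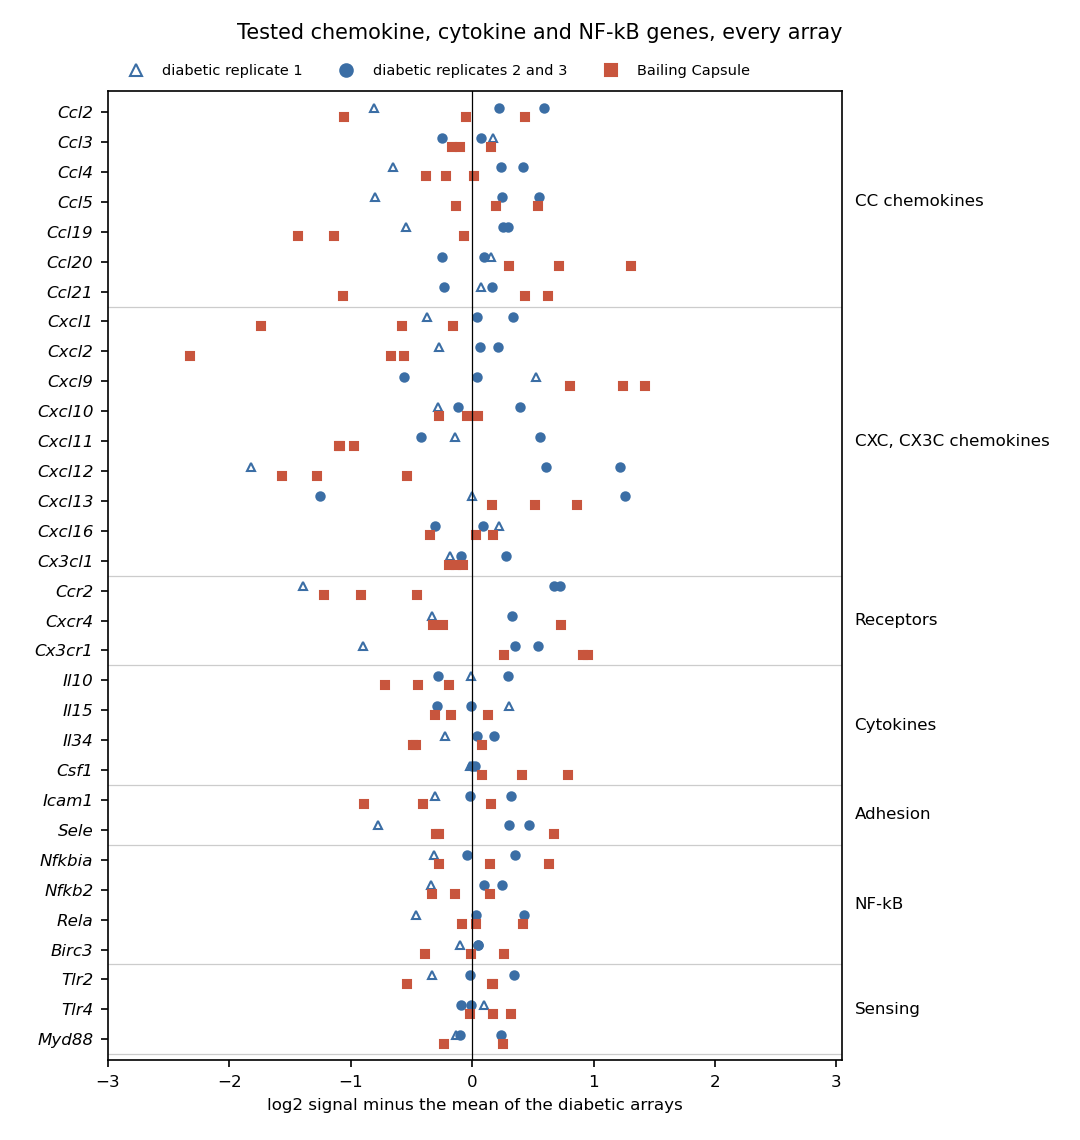
Scaled log2 signal of the 32 tested genes on each of the 6 arrays, minus the mean of the diabetic arrays of that gene, ordered by role; the open triangle is diabetic replicate 1, filled circles are diabetic replicates 2 and 3, and squares are the Bailing Capsule arrays. Most genes overlap between groups, and the squares lie clear of the diabetic points for Cxcl9, Ccl20, Csf1, Cxcl11 and Cxcl2.

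The 3 ligands of the receptor Cxcr3, which are induced by interferon and draw activated T cells, had differences of both signs, none past the adjusted threshold. Cxcl11 read -0.31, 0.39 and -0.59 on the diabetic arrays and -1.14, -1.26 and -1.27 with Bailing Capsule. Every treated array was below every diabetic array, and the treated arrays lay close together (SD 0.07, against 0.50). The difference was -1.06 (SE 0.29, adjusted p = 0.274, 95% interval -1.71 to -0.40), a 2.08-fold lower signal. With slide as a block it was -0.91.

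Cxcl9 read -2.98, -3.47 and -4.06 on the diabetic arrays and -2.08, -2.70 and -2.26 with Bailing Capsule. Here every treated array was above every diabetic one, and diabetic replicate 1 lay nearest to the treated arrays. The difference was 1.16 (SE 0.32, adjusted p = 0.274, 95% interval 0.44 to 1.87), a 2.23-fold higher signal. It was 0.63 with slide as a block and 0.46 after normexp background correction followed by quantile normalization, a setting that changes the scaling too.

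Cxcl10, which many cell types make in response to interferon, read 0.80, 1.47 and 0.96 on the diabetic arrays and 1.04, 0.81 and 1.13 with Bailing Capsule. The groups overlapped, and the difference was -0.09 (SE 0.27, 95% interval -0.69 to 0.51). The difference between the Cxcl9 and Cxcl11 signals within an array is the same whatever constant is subtracted from that array, although its level has no meaning of its own. This difference was -2.67, -3.86 and -3.47 on the diabetic arrays and -0.94, -1.44 and -0.99 with Bailing Capsule, and its mean was 2.21 higher with Bailing Capsule. This value was 1.55 with slide as a block, 1.33 after normexp and quantile normalization and 2.27 after quantile normalization alone. The pair was chosen after its values were seen, so no test is given.

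**Figure D2:**
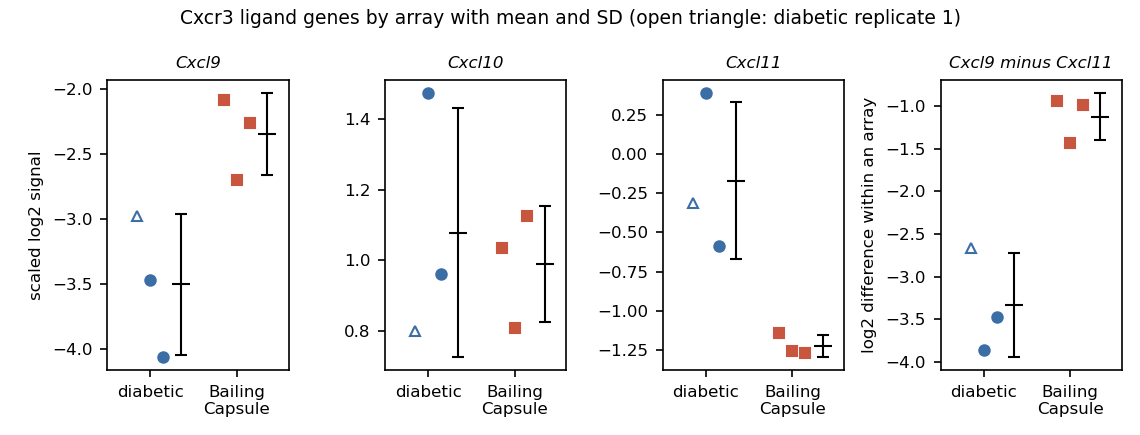
Scaled log2 signal of Cxcl9, Cxcl10 and Cxcl11 and the within-array difference of Cxcl9 minus Cxcl11 for 3 diabetic and 3 Bailing Capsule arrays, with each group's mean and SD beside the points and an axis of its own for each panel. The groups are apart in opposite directions for Cxcl9 and Cxcl11 and overlap for Cxcl10.

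The RefSeq promoters of these 3 neighbouring genes (GRCr8, from 250 bases before to 50 bases after the start, 300 bases) are shown because the differences of Cxcl9 and Cxcl11 had opposite signs. They lie at chr14:16006916-16007215 for Cxcl9, chr14:15988816-15989115 for Cxcl10 and chr14:15973478-15973777 for Cxcl11, all on the + strand. Capitals mark a match to the kappaB consensus or to the interferon-response core (GAAA, any 2 bases, then GAAA) on either strand.
Cxcl9: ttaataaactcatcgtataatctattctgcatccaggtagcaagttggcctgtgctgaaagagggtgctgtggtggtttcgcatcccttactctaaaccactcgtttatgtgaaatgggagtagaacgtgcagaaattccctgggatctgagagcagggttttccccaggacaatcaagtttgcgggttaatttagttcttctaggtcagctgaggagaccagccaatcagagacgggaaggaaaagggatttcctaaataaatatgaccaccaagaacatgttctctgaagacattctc
Cxcl10: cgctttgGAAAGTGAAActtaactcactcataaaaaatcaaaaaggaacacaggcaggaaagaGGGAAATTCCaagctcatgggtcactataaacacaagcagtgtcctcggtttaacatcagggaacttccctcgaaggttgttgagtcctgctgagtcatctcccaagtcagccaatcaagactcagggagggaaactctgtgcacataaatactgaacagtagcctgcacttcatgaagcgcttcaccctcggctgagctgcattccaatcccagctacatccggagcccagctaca
Cxcl11: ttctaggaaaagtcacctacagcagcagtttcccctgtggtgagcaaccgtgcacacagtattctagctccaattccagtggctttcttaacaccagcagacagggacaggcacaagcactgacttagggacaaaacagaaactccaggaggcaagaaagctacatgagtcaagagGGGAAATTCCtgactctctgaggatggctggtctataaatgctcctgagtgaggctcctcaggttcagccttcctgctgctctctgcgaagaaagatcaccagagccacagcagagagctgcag
Cxcl11 held a kappaB match that began at position -74 from the start. Cxcl10 held a kappaB match at -187 and an interferon core at -243. Cxcl9 held neither in this window, which says only that these letters are not there.

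Cxcl1 and Cxcl2, which attract neutrophils through Cxcr2, both had negative differences. Cxcl1 read -1.61, -1.20 and -0.91 on the diabetic arrays and -1.82, -2.98 and -1.40 with Bailing Capsule. The groups overlapped through treated replicate 3, and treated replicate 2 was lowest of all. The difference was -0.83 (SE 0.40, adjusted p = 0.699), and it was -0.37 without treated replicate 2. The 9 or 10 usable spots of the Cxcl1 probe had SDs of 0.04 to 0.10 within an array, which cover the noise between spots only.

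Cxcl2 read -5.25, -4.76 and -4.91 on the diabetic arrays and -5.64, -7.30 and -5.54 with Bailing Capsule. All treated arrays were below all diabetic arrays, but the probe was dim, above background on 3 of 3 diabetic and 1 of 3 treated arrays. The difference was -1.18 (SE 0.43, adjusted p = 0.486), it was -0.61 without treated replicate 2, and after normexp and quantile normalization it was -0.04. The promoters of this pair on the - strand, at chr14:17479272-17479571 for Cxcl1 and chr14:17467206-17467505 for Cxcl2, are shown with the kappaB matches in capitals, since both carry one close to the start.
Cxcl1: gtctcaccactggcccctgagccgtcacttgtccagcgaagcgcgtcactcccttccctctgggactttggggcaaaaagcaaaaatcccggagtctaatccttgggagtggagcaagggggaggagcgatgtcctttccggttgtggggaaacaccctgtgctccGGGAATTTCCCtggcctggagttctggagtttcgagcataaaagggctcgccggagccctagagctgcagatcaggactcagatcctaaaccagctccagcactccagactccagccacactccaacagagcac
Cxcl2: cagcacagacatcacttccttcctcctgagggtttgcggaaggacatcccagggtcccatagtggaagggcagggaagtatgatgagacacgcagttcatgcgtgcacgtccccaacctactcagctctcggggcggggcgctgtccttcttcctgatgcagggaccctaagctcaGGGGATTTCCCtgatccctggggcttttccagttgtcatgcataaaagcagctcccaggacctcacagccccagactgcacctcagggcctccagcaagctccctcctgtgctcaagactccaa
In each, 2 overlapping kappaB matches made up the run in capitals, the first at -84 in Cxcl1 and at -74 in Cxcl2.

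Across the list, 31 members had a promoter entry, and 11 of those held the kappaB consensus, against 4.16% of all 27457 promoters of the same length. They were Ccl20, Cxcl1, Cxcl2, Cxcl10, Cxcl11, Il6, Nfkbia, Nfkb1, Nfkb2, Tnfaip3 and Tlr2. The list was named for NF-kB targets, so this share describes the list. The interferon core was in 3 of 31 (Ccl19, Cxcl10 and Myd88, against 3.77%), and TATAAA on either strand was in 9 of 31 (against 14.3%). Of the 8 tested genes with a kappaB match, 6 had negative differences (Cxcl1, Cxcl2, Cxcl10, Cxcl11, Nfkb2 and Tlr2) and 2 had positive ones (Ccl20 at 0.78 and Nfkbia at 0.17). Of all features, 62.1% had a negative sign. Cxcl10, Nfkb2 and Tlr2 were at -0.09, -0.11 and -0.07 and were positive with slide as a block. Cxcl2 was kept through the diabetic group alone, so the count gives no result about kappaB matches.

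Among the other CXC and CX3C ligands, Cxcl12, which retains leukocytes and progenitors through Cxcr4, had the widest spread among the diabetic arrays. It read 4.09, 7.13 and 6.52 on the diabetic arrays and 5.37, 4.34 and 4.63 with Bailing Capsule. Diabetic replicate 1 was below all treated arrays, while diabetic replicates 2 and 3, both on slide 2, were above them. The difference was -1.13 (SE 0.65, adjusted p = 0.806). Without diabetic replicate 1 it was -2.04 (adjusted p = 0.0249), in a fit where group and slide cannot be told apart. With slide as a block it was 0.70. A second Cxcl12 probe, made to another RefSeq transcript of the gene, read 1.07, 1.24 and 1.30 against 2.06, 0.84 and 1.22, a difference of 0.17. The probes therefore disagreed in sign and in the place of diabetic replicate 1.

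Cxcl13, the B cell attractant, read -1.86, -3.12 and -0.60 against -1.35, -1.70 and -1.0, so the treated arrays lay within the diabetic range. Cxcl16, a membrane-bound ligand and scavenger receptor, differed by -0.048 (SE 0.27). Cx3cl1 (fractalkine), the membrane-bound ligand of Cx3cr1, differed by -0.13 (SE 0.25).

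Of the CC chemokines, Ccl20, which attracts cells that carry Ccr6, read -2.69, -2.75 and -3.10 on the diabetic arrays and -1.54, -2.54 and -2.13 with Bailing Capsule. Every treated array was above every diabetic one. The difference was 0.78 (SE 0.30, adjusted p = 0.546, 95% interval 0.10 to 1.45). A second Ccl20 probe had a difference of 0.49, with treated replicate 2 at -3.45 below all diabetic arrays, and normexp with quantile normalization gave 0.40.

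Ccl19, a ligand of Ccr7 that guides dendritic cells and T cells, read 0.87, 1.71 and 1.67 against 1.35, -0.01 and 0.28. Treated replicate 1 lay among the diabetic arrays and the other two below them. The difference was -0.88 (SE 0.39, adjusted p = 0.643), and -0.33 with slide as a block. Ccl21, the other ligand of Ccr7, differed by -0.0030 (SE 0.41), with treated replicate 1 at -4.33 below and the others above the diabetic arrays.

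Ccl2, the main attractant of monocytes that carry Ccr2, read -1.89, -0.86 and -0.49 on the diabetic arrays and -0.65, -2.14 and -1.13 with Bailing Capsule. Each group spanned most of the range of the other, and the difference was -0.22 (SE 0.44, 95% interval -1.21 to 0.77). It was 0.59 with slide as a block and -0.63 without diabetic replicate 1. The 9 or 10 usable spots of this probe had SDs of at most 0.10 within an array.

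Ccl5, which attracts T cells and monocytes, read 0.65, 1.70 and 2.0 against 1.99, 1.31 and 1.65. Diabetic replicate 1 was the lowest of the 6 arrays. The difference was 0.20 (SE 0.36), 1.0 with slide as a block and -0.20 without diabetic replicate 1. The macrophage inflammatory proteins Ccl3 and Ccl4 differed by -0.035 (SE 0.25) and -0.19 (SE 0.32). Ccl7, another monocyte attractant, was above background on 1 of 6 arrays, a treated one.

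No receptor passed the test on all 6 arrays, and the lowest adjusted p was 0.784. Cx3cr1, carried by monocytes and resident macrophages, read 1.46, 2.89 and 2.71 on the diabetic arrays and 3.26, 2.62 and 3.31 with Bailing Capsule. Diabetic replicate 1 was the lowest, and treated replicate 2 lay below the other diabetic arrays. The difference was 0.71 (SE 0.39, adjusted p = 0.784), 1.61 with slide as a block (adjusted p = 0.221) and 0.26 without diabetic replicate 1.

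Ccr2, the receptor of Ccl2 on inflammatory monocytes, read -4.42, -2.35 and -2.30 against -3.48, -3.94 and -4.25. As for the first Cxcl12 probe, diabetic replicate 1 lay below all treated arrays and the other diabetic arrays lay above them. The difference was -0.86 (SE 0.51, adjusted p = 0.818), -1.56 without diabetic replicate 1 (adjusted p = 0.0448) and 0.53 with slide as a block. The fit without diabetic replicate 1 cannot tell group from slide. Cxcr4, the receptor of Cxcl12, differed by 0.055 (SE 0.39) in a fit that lacked diabetic replicate 2, whose spot was an outlier. Ccr1 was above background on no array.

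**Figure D3:**
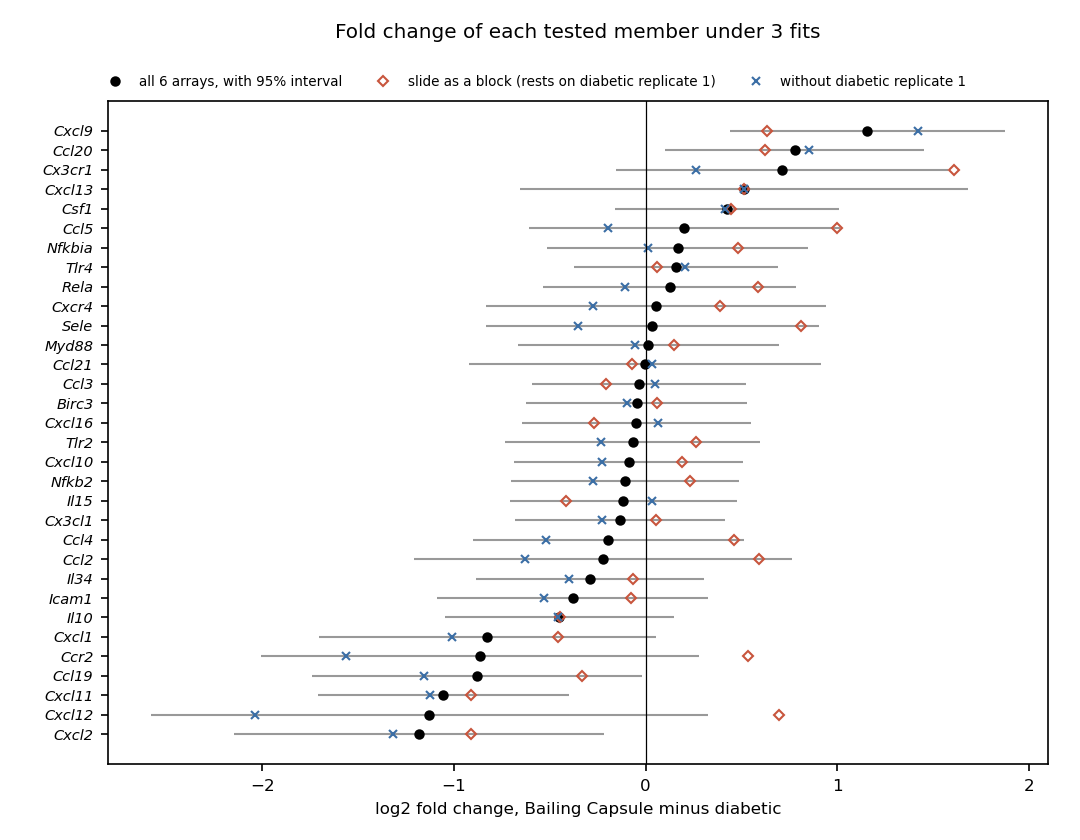
Log2 fold change (Bailing Capsule minus diabetic) of the 32 tested genes in 3 fits, with the 95% interval of the fit on all 6 arrays as a grey line; diamonds have slide as a block and crosses leave out diabetic replicate 1. The diamond and the cross lie on opposite sides of 0 for Cxcl12, Ccr2 and several other genes, such as Ccl2 and Ccl4. All marks lie on 1 side for Cxcl9, Cxcl11, Cxcl2, Ccl20 and several others, such as Ccl19 and Cxcl1.

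Among cytokines and growth factors, Csf1, which sustains macrophages, read -2.06, -2.04 and -2.02 on the diabetic arrays and -1.96, -1.25 and -1.63 with Bailing Capsule. The diabetic arrays were nearly equal and all treated arrays were above them. The difference was 0.43 (SE 0.26, adjusted p = 0.840, 95% interval -0.16 to 1.01). Il34, the other ligand of the Csf1 receptor, differed by -0.29 (SE 0.27), and its groups overlapped.

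Il10, an anti-inflammatory cytokine, read -3.62, -3.32 and -3.89 against -3.80, -4.32 and -4.06, a difference of -0.45 (SE 0.27, adjusted p = 0.820). Only treated replicate 1 reached into the diabetic range. Il15, which sustains natural killer and memory T cells, differed by -0.12 (SE 0.27). Il6, an NF-kB target, was above background on no array. Tnf was above background on 2 of 3 arrays in each group.

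The adhesion molecules are displayed by activated endothelium. Icam1, which binds leukocyte integrins, read -1.0, -0.37 and -0.71 against -1.59, -0.54 and -1.10, and the difference was -0.38 (SE 0.32, adjusted p = 0.930). Sele, which slows rolling leukocytes, differed by 0.036 (SE 0.39), and its second probe was above background on no array, as was the Selp probe.

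The 4 tested genes of NF-kB subunits and inhibitors had differences between -0.11 and 0.17, with overlapping groups. Nfkbia, the inhibitor that NF-kB itself induces, read 0.63, 1.30 and 0.90 on the diabetic arrays and 1.09, 1.57 and 0.67 with Bailing Capsule, a difference of 0.17 (SE 0.31, 95% interval -0.51 to 0.85). Diabetic replicate 1 and treated replicate 3 were the lowest arrays. Nfkb2 and Rela, which encode subunits, differed by -0.11 (SE 0.27) and 0.12 (SE 0.30), and a second Rela probe by 0.14. Birc3, an NF-kB-induced inhibitor of apoptosis, differed by -0.046 (SE 0.26). The 95% interval was -0.70 to 0.49 for Nfkb2, -0.53 to 0.78 for Rela and -0.62 to 0.53 for Birc3.

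Of the genes that sense microbial and damage signals, Tlr4, the endotoxin receptor, differed by 0.16 (SE 0.24) and Tlr2, the lipoprotein receptor, by -0.067 (SE 0.30). Myd88, their shared adaptor, differed by 0.014 (SE 0.30) in a fit that lacked treated replicate 2, whose spot was an outlier. Nlrp3, the inflammasome sensor, was above background on no array.

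The rest of the pathway was read from 2 further lists. Of 71 other NF-kB pathway genes, 57 had a probe and 50 were tested. None was called by limma. An unadjusted p under 0.05 was found for 6 (12%, against 7.55% of all features), all with negative differences, a sign that 62.1% of all features and 60% of this list had. Its median difference was -0.08, which became 0.05 in the fit that blocks on slide. Those with the 5 smallest p-values were Tlr3, a sensor of double-stranded RNA, at -1.0 (adjusted p = 0.397), Cflar, an inhibitor of caspase 8, at -0.77, the nuclear IkB protein gene Bcl3 at -0.90, the cytokine signalling inhibitor Socs3 at -0.60 and the kinase gene Irak2 at -0.63. The groups did not overlap for 9 of the 50 (18%, against 11.6% of all features), 7 of them lower.

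Of 62 other chemokine, cytokine and receptor genes, 55 had a probe and 26 were tested, with none called by limma and 3 at an unadjusted p under 0.05 (11.5%, against 7.55% of all features). Ccl28, an epithelial chemokine, read 0.36, 0.83 and 0.28 on the diabetic arrays and -0.43, -0.45 and -0.43 with Bailing Capsule. The treated arrays were nearly equal and all lower, and the difference was -0.93 (SE 0.25, adjusted p = 0.266). Cxcl17, above background on 1 of 3 diabetic arrays and kept through the treated group, differed by 1.24 (adjusted p = 0.382), Csf3, the granulocyte growth factor, by -1.14 (adjusted p = 0.555), Ackr3, the scavenging receptor of Cxcl12, by 0.54 and Il23a by -0.51.

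Leukocyte markers were read beside these genes. Of 15 myeloid markers 14 had a probe and 11 were tested, and none was called by limma. Mrc1, a macrophage marker, was above background on no array. Differences were positive for 8 of the 11, with a median of 0.13. Ptprc differed by 0.13 (SE 0.23, adjusted p = 0.976), and by 0.08 with slide as a block. Every treated array was above every diabetic one, but the nearest were at -1.56 and -1.57. Cd68 differed by 0.25 and Fcer1g, a signalling chain of Fc receptors, by 0.60. The summed linear signal of the 11, in units of each array's 75th percentile, ranged from 58.2 to 70.2 on the diabetic arrays and from 50.2 to 91.1 with Bailing Capsule. This sum mostly follows Lyz2, which read 5.32 to 6.27, while no other of the 11 read above 2.88. The groups did not overlap for 4 of the 11 (36.4%, against 11.6% of all features), Ptprc and 3 with negative differences. Named after their values were seen, the neutrophil genes S100a8 and S100a9 and the integrin gene Itgb2 were lower on every treated array than on every diabetic array. S100a8 read -3.88, -2.73 and -2.98 against -5.40, -5.14 and -4.41, a difference of -1.78 (SE 0.37, adjusted p = 0.110). S100a8 and S100a9 were above background on 3 of 3 diabetic and 2 of 3 treated arrays, so both were kept through the diabetic group. They therefore add no support to the share of 36.4%. S100a9 differed by -1.46 (adjusted p = 0.129) and Itgb2 by -0.86 (adjusted p = 0.253). With slide as a block these differences were -1.10, -0.94 and -0.83. Csf3r, the receptor of Csf3 on neutrophils, differed by 0.11. The part of these genes' cells in the values of Cxcl1 and Cxcl2 was not tested.

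**Figure D4:**
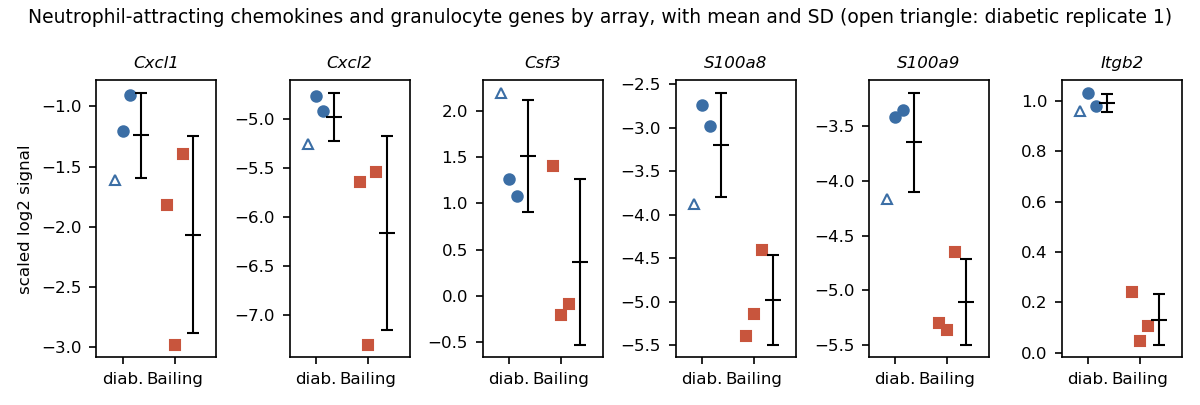
Scaled log2 signal of the neutrophil attractants Cxcl1 and Cxcl2, the growth factor gene Csf3 and the leukocyte genes S100a8, S100a9 and Itgb2 on 3 diabetic and 3 Bailing Capsule arrays, with each group's mean and SD and an axis of its own for each panel. The groups do not overlap for Cxcl2, S100a8, S100a9 and Itgb2, and they overlap for Cxcl1 and Csf3. Cxcl2, S100a8 and S100a9 were kept through the diabetic group alone, with 1, 2 and 2 of 3 treated arrays above background. Csf3r, not shown, differed by 0.11. The 3 leukocyte genes were chosen after their values were seen, and 8 of the 11 tested myeloid markers, not shown, had positive differences.

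Of 15 lymphoid markers 12 had a probe and 6 were tested, with a median of -0.07. Cd3g had no value on diabetic replicate 2 and was left out of the sums, although it read 2.72 to 3.60 elsewhere. The sums of the other 5 were 0.609 to 0.894 on the diabetic arrays and 0.641 to 0.851 with Bailing Capsule. Cd2, Cd8a, Cd79b and Klrb1 were above background on no array. Of 10 endothelial markers 6 were tested, with a median of -0.17 (0.29 when slide was blocked) and sums of 39.4 to 58.4 against 30.1 to 52.9. These sums mostly follow Kdr, which read 4.79 to 5.80, while no other of the 6 read above 0.65. Differences were negative for 4 of the 6, Cdh5 at -0.52, Pecam1 at -0.38, Kdr at -0.28 and Eng at -0.06. Emcn was at 0.43 and Flt1 at 0.17. The 11 kidney epithelial markers had a median of -0.0012, with Lrp2 at -0.28 and Umod at -0.09. All 7 tested liver markers had negative differences, with a median of -1.0 and Alb at -1.37 (adjusted p = 0.304), and their sums were 22.3 to 51.2 against 17.5 to 40.4. Of 8 platelet and red cell markers 5 were tested, with a median of 0.42 and sums of 107 to 151 against 104 to 229, mostly from Hbb and Hba-a1. The part of all these markers' cells in the results above was not tested.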

How the data were processed

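Spot values came from Agilent Feature Extraction 11.0.1.1, per the file headers. The deposited scanner files hold, per spot, an intensity after background subtraction with no scaling between arrays. The deposited value table holds log2 values with a median of 5.05 in each column, which correlated with their own arrays at 0.983 to 0.994. How the authors made that table is not given in the sources used here. The table entered as an alternative. Columns of other kinds in the deposited files served as flags, probe names and background calls.

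Of 42877 spots other than controls per array, 597 to 1091 were flagged as outliers and left out. No spot was saturated. Log2 signals were averaged over the spots of a probe and set relative to the 75th percentile of their array. A probe was above background where at least 50% of its spots were, and was kept if 1 group or both had it above background on all 3 arrays. The brightest kept probe stood for a gene. RefSeq accessions, without versions, named 18005 probes through a gene table of assembly GRCr8 and left 12362 unnamed here. The array's annotation is of build rn4, so no probe coordinates are given. The test was limma's moderated model (version 3.58.1, R 4.3.3, eBayes), with 3 arrays in each group (Benjamini-Hochberg over 17892 features, adjusted p under 0.05). The number of arrays limits the precision, and 536 features lacked a value on at least 1 array.

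The members and lists were chosen with earlier results of these data known. Named by rule were every member, the 5 genes of each of the other lists with the smallest unadjusted p, and fixed cell markers. Further genes, mostly from the marker lists, were named outside this rule. Among the myeloid markers, the neutrophil genes and the integrin gene were named after their values were seen. Alternatives were other scalings, normexp with an offset of 50 followed by quantile normalization, the deposited table, other filters, averaging the probes of a gene, testing probes separately, a variance trend, slide and replicate blocks, and leaving out each array. Promoters came from RefSeq (GRCr8), where 10 members had no entry. The fit was tested on simulated data.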

Additional observations from a re-analysis of the deposited data

How the results depend on the processing

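Under each of 18 other settings, no member was called except without diabetic replicate 1, when Cxcl12 and Ccr2 were. In that fit group and slide cannot be told apart. Of the 32 members, 12 kept their sign in every setting run on them, among them Cxcl9, Cxcl11, Cxcl2, Cxcl1, Ccl20, Ccl19, Cx3cr1 and Csf1, and 20 did not. Over all features, 57 were called (23 higher, 34 lower), against 12 after normexp and quantile normalization, 6 with no filter and 17 to 195 when 1 array was left out. The lowest of these was without diabetic replicate 2 and the highest without diabetic replicate 1, and 141 were called without treated replicate 1. The members called ranged from 0 to 2 when 1 array was left out. The split was 25 higher and 20 lower in the deposited table, 28 and 22 with the percentile taken over probes above background on all arrays, and 28 and 10 with slide as a block. That percentile moved the median of all features from -0.09 to 0.02. The cause of these shifts was not tested.

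No shared source of same-numbered arrays is stated. Their deviations from the group means correlated at -0.18, -0.14 and 0.014, and 0 of 6 arrays correlated best with their own number. These values gave no sign of pairing, but with so few arrays they cannot exclude a shared source. With the replicate block 6 features were called, and 0 members.

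With slide as a block, the median of the members was 0.21 and these members had the other sign: Ccl2 at 0.59, Ccl4 at 0.46, Cxcl10 at 0.19, Cxcl12 at 0.70, Cx3cl1 at 0.052, Ccr2 at 0.53, Nfkb2 at 0.23, Birc3 at 0.057 and Tlr2 at 0.26. With the percentile over probes above background on all arrays, Ccl3 was 0.074, Ccl21 0.11, Cxcl10 0.021, Cxcl16 0.060, Nfkb2 0.00035, Birc3 0.063 and Tlr2 0.042. After normexp and quantile normalization, Ccl3 was 0.0053, Ccl4 0.062, Ccl21 0.14, Cxcl16 0.090, Birc3 0.0057 and Myd88 -0.040. In the deposited table, Ccl3 was 0.0087, Ccl21 0.034, Cxcl10 0.0019, Cxcl16 0.12, Cx3cl1 0.023, Cxcr4 -0.045, Birc3 0.00062 and Myd88 -0.090. Ccl21 was 0.026 with median scaling and 0.0050 with quantile normalization, where Cxcl16 was 0.061. Leaving out 1 array gave, for members whose sign changed, Ccl2 from -0.63 to 0.19, Ccl3 from -0.16 to 0.051, Ccl4 from -0.52 to 0.013, Ccl5 from -0.20 to 0.48, Ccl21 from -0.32 to 0.53, Cxcl10 from -0.23 to 0.11, Cxcl13 from -0.11 to 1.14, Cxcl16 from -0.20 to 0.10, Cx3cl1 from -0.23 to 0.0057 and Cxcr4 from -0.28 to 0.39. The same ranges were Il15 from -0.26 to 0.033, Sele from -0.35 to 0.27, Nfkbia from -0.063 to 0.39, Nfkb2 from -0.28 to 0.013, Rela from -0.11 to 0.34, Birc3 from -0.20 to 0.12, Tlr2 from -0.23 to 0.17 and Myd88 from -0.23 to 0.26. Dim probes, such as that of Cxcl2, have little signal over background, which limits their precision.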
